A study of Mus musculus with 9 samples.

Results

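The 10 genes described here, Hif1a, Slc2a1, Hk2, Hk3, Pfkl, Pfkfb3, Aldoa, Pgk1, Eno1 and Ldha, cover glucose uptake, glycolysis, lactate formation and the hypoxia-inducible factor that drives them. They are defined by name, with no threshold on a measured value, although earlier results of these data were known when they were chosen. Each had 1 entry in both expression tables, which list 46072 genes. Expression was measured by RNA sequencing in 9 libraries of splenic monocytes from female C57BL/6 mice aged 8 to 10 weeks, with 3 libraries in each of 3 groups and no stimulation after isolation. Con mice received water by gavage for 6 days. Van mice received vancomycin, a poorly absorbed antibiotic whose action stays largely in the gut. They were given 2 gavages of 1 mg each day, which is 2 mg a day, for 6 days. VanLip mice received the same vancomycin course and then L654, a lipid made by gut Bacteroidota that is sensed through the receptor TLR2, on days 7, 9 and 11 by retro-orbital injection. All groups were rested without antibiotic for 8 days, given as 6 to 8 in the general protocol, before the spleens were taken. No group received L654 without vancomycin. The study describes an injection for the sequenced VanLip mice only, although its general protocol includes a vehicle injection. If Con and Van had none, the injection itself cannot be told apart from L654. Monocytes were enriched by magnetic removal of other cells, so a library is a bulk measure of what remained.

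Glycolysis splits glucose into pyruvate in the cytosol, and lactate dehydrogenase converts pyruvate to lactate so that the pathway can run without oxygen. HIF-1α, the product of Hif1a, is held down by oxygen-dependent prolyl hydroxylases that mark it for degradation, mostly at the protein level, and when stable it binds a short core motif near its target genes, which include most glycolytic enzymes. In monocytes and macrophages, glycolysis and HIF-1α are known for rising with activation through Toll-like receptors and for supporting cytokine production.

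Sequences upstream of 4 genes are shown because they hold the letters ACGTG, the commonest form of the HIF core motif, on either strand. They belong to Hk2 and Pfkfb3, which DESeq2 called between groups, and to Ldha and Pgk1, which it called in no comparison. They were taken from RefSeq on GRCm38.p6, run 5′ to 3′ on the strand of the gene towards its start site, and carry ACGTG or its reverse complement CACGT in capitals. The palindrome CACGTG holds both and was counted once.
Hk2, chr6:82774455-82774704, minus strand: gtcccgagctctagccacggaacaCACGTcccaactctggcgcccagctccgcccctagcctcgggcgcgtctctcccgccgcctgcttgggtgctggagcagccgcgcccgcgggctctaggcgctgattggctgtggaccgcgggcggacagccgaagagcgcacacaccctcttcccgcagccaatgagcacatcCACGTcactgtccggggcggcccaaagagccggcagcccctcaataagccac
Pfkfb3, second RefSeq start, chr2:11502102-11502340, minus strand: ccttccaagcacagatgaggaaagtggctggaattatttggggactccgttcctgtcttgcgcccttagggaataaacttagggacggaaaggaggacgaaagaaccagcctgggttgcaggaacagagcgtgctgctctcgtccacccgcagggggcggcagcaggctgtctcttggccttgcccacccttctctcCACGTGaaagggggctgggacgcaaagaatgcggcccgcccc
Pgk1, chrX:106186850-106187099, plus strand: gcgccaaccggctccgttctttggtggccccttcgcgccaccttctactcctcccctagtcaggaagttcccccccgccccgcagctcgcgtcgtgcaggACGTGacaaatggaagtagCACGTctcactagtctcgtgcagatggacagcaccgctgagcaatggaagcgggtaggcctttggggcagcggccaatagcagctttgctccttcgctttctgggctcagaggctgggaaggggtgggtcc
Ldha, first RefSeq start, chr7:46845554-46845803, plus strand: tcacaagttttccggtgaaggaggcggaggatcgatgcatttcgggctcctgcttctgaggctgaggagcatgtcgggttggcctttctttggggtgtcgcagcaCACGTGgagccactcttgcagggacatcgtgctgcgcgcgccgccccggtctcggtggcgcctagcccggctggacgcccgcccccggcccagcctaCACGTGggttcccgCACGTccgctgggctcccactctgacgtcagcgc

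All 10 genes matched RefSeq, with 16 upstream windows of 250 bases among them. The Hk2 and Pgk1 windows end at the base before the annotated gene. The Pfkfb3 and Ldha windows lie within the annotated genes, at chr2:11471433-11554077 and chr7:46841475-46855627, upstream of an internal start. The last 11 bases of the Pfkfb3 window lie in an annotated exon and are not printed. At least 1 window of 8 of the 10 genes held the motif, all but Pfkl and Eno1, against 18.5% of 27025 genes. Of the 16 windows 10 held it, against 16.6% of 32851 windows, but 2 of the 10 are overlapping Aldoa windows that hold the same site. Ldha had 3 separate sites in the window shown, beginning 145, 48 and 34 bases before the start site, and 0.256% of all windows held 3 or more. Hk2 had 2 sites, 226 and 52 bases before its start, Pgk1 had 2, at 150 and 131 bases, and Hif1a had 2, at 135 and 70 bases, where 1.95% of windows held 2 or more. Pfkfb3 had 1 site in each of its windows, at 53 bases in the one shown. The other core form, GCGTG on either strand, was present in windows of Pfkl and Eno1, and all but 1 of the 16 windows, an Aldoa window, held at least 1 of the 2 forms, against 38.6% of all windows. These matches describe letters in a window, and binding was not measured.

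Expected counts summed to between 43070361 and 61383806 per library in Con and Van and between 170503470 and 184720704 in VanLip. The commonest low count was 1.33 in every Con and Van library and 2.00 in every VanLip library. Its source was not tested, and the study's methods give a single read length for all libraries. Fragment numbers were estimated by taking this count to reflect longer reads in VanLip than in Con and Van. The estimates ran from 16151385 to 23018927 per library in Con and Van and from 42625868 to 46180176 in VanLip. An alternative fit given below, with VanLip fragments thinned, used these estimates. Depth, and whatever sets the commonest low count, cannot be told apart from the VanLip group. All 12 monocyte markers examined were detected, with a summed FPKM of 10540 to 12844. Of the 10 neutrophil markers, Ly6g was at 0 in every library and each of the others was detected in at least 1, with a summed FPKM of 110 to 113 in Con, 114 to 141 in Van and 103 to 133 in VanLip, with 1 called higher and 1 lower between Van and Con and 1 lower between VanLip and Con. Markers of red blood cells summed to between 104 and 206 in Con, 345 and 776 in Van and 282 and 1167 in VanLip. Of the 8 red blood cell markers with an entry, 5 were called higher between Van and Con and 7 between VanLip and Con, none was at 0 in all libraries, and their part in the results was not tested. The 7 B cell markers summed to 336 to 394 in Con, 251 to 277 in Van and 258 to 321 in VanLip, with 2 called lower between Van and Con (Ighm and Ighd), 1 between VanLip and Con (Ighm) and none at 0, and their part was not tested either. The DESeq2 p-values set a group difference against the spread between libraries within groups, estimated from all 9 libraries together. A group outside a comparison therefore still affects its p-value. In such bulk samples fewer cells of a type and less RNA per cell cannot be told apart.

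Levels are given as FPKM, fragments counted per unit of transcript length and scaled to library size, which allows genes to be ranked per unit length. By the mean over the 9 libraries the order was Aldoa, Eno1, Ldha, Pgk1, Hk3, Pfkfb3, Hif1a, Hk2, Pfkl and Slc2a1. Aldolase and the enzymes of the steps below it were therefore the most abundant of these transcripts, and glucose uptake and the phosphofructokinase subunit the least. The ranges of neighbouring genes overlapped for Aldoa and Eno1, for each step from Hk3 to Hk2, and for Pfkl and Slc2a1, so these neighbours have no firm order. Over the 9 libraries the coefficient of variation of the FPKM ran from 4.37% for Pgk1 to 17.9% for Slc2a1.

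**Figure D1:**
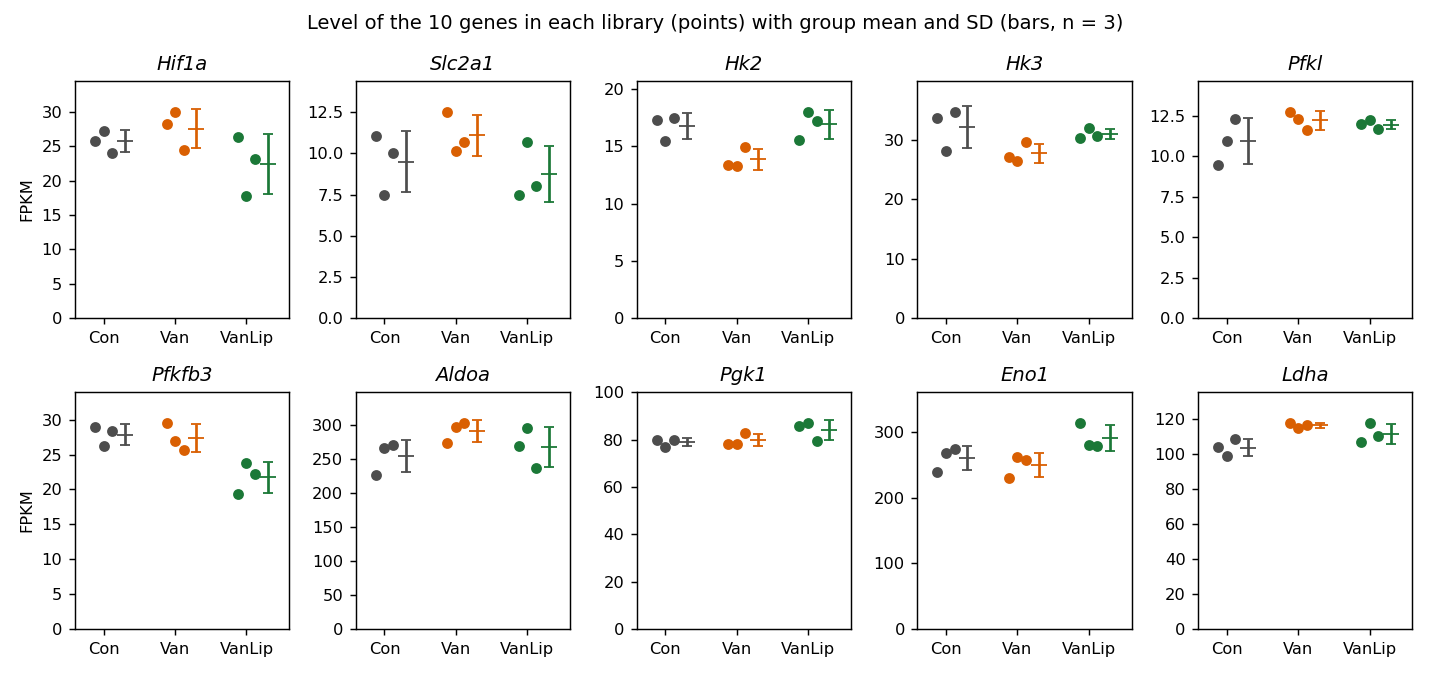
FPKM of each of the 10 genes (vertical axes from 0) in the Con, Van and VanLip libraries, with each point a library and the bars the group mean and SD (n = 3). Hk2 is lowest in the 3 Van libraries and Pfkfb3 in the 3 VanLip libraries, and for most other genes the 3 groups lie close together.

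The design gives 3 comparisons, which ask how monocyte expression differed after vancomycin, after vancomycin followed by L654, and with L654 among vancomycin-treated mice. They share groups, so they are not independent of each other. A gene was called when DESeq2 gave a Benjamini-Hochberg adjusted p of 0.05 or under over all genes tested. For Van against Con, 1 of the 10 genes was called, Hk2, which was lower in Van, where 4.34% of all 18516 genes tested were called, 2.27% higher and 2.06% lower. VanLip against Con called 1 of 10, Pfkfb3, lower in VanLip, against 6.67% of 16552 genes, 2.98% higher and 3.69% lower. VanLip against Van called 2 of 10, Hk2 higher and Pfkfb3 lower in VanLip, against 9.86% of 18025 genes, 4.58% higher and 5.28% lower. With 10 genes a single call is already a larger share than each of these, so the counts are read as near the background. The median log2 fold change of the 10 genes was 0.06, 0.03 and -0.04 in the same order, beside -0.01, 0.01 and 0.01 for all genes tested. edgeR's quasi-likelihood test, an alternative, called 0 of the 10 genes in each comparison, with 3, 2 and 3 at an unadjusted p under 0.05, and called 0.743%, 1.14% and 2.86% of all genes.

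**Figure D2:**
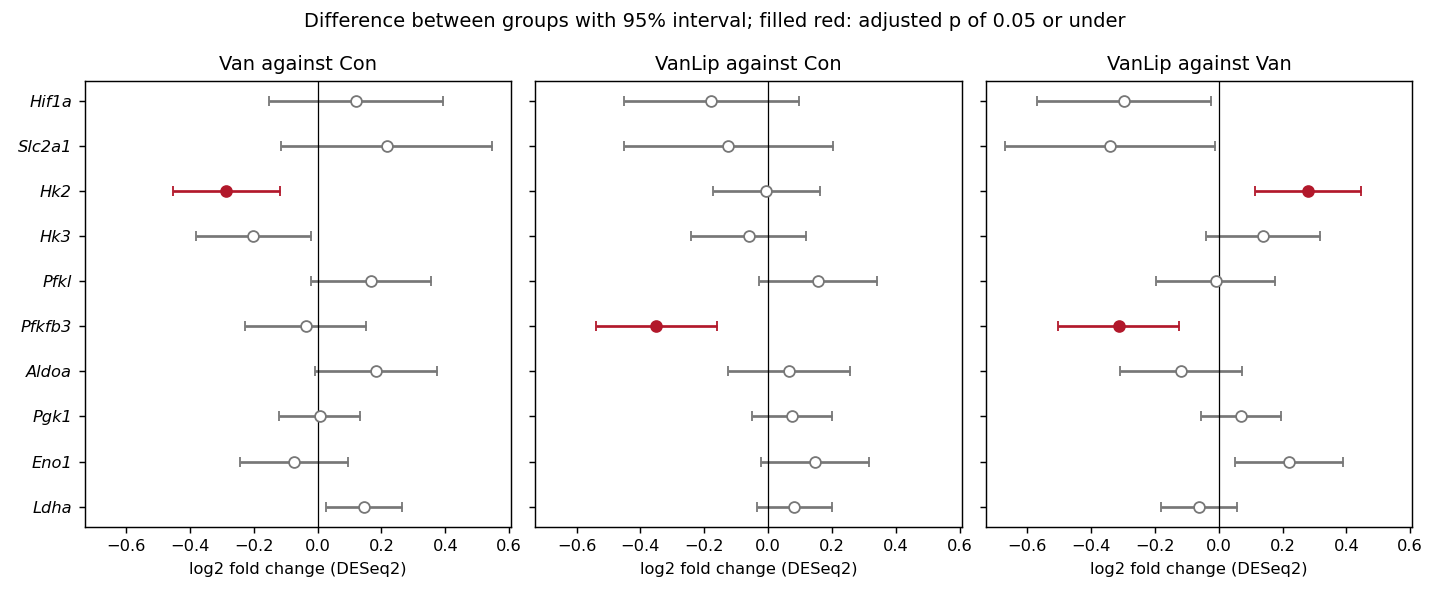
DESeq2 log2 fold change of each gene (points) with its 95% interval (lines) for the 3 comparisons, where filled red points have an adjusted p of 0.05 or under. Hk2 is at -0.29 between Van and Con and 0.28 between VanLip and Van, Pfkfb3 is at -0.35 and -0.31 in the 2 comparisons with VanLip, and every other point is open.

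Hif1a encodes the oxygen-regulated subunit of HIF-1. Its FPKM was 25.8, 27.3 and 24.1 in Con, 28.2, 30.0 and 24.4 in Van, and 26.3, 17.7 and 23.1 in VanLip. The VanLip libraries were spread widely and included both the lowest value, in VanLip 2, and a value within the Con range, so no pair of groups was separated. Against Con, the log2 fold change was 0.12 in Van (95% interval -0.15 to 0.39) and -0.18 in VanLip (-0.45 to 0.10). Between VanLip and Van it was -0.30, with an interval of -0.57 to -0.03 and an adjusted p of 0.18. The outcome depended on single libraries, since without VanLip 1 the log2 fold change was -0.44 with an adjusted p of 0.0112, while without VanLip 2 it was -0.15 with an adjusted p of 0.516, the ends of the range over left-out libraries.

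Slc2a1 encodes GLUT1, the basal glucose transporter of many cells. It was the least abundant of the 10 genes and the most variable, with an FPKM of 11.0, 7.47 and 10.0 in Con, 12.5, 10.1 and 10.7 in Van, and 7.49, 10.7 and 8.04 in VanLip. All pairs of groups overlapped. Between VanLip and Van the log2 fold change was -0.34 (SE 0.17, adjusted p = 0.213), and without VanLip 2, the highest of its group, it was -0.51 with an adjusted p of 0.0233, where the adjusted p without any other library ran up to 0.561. Slc2a1 contributed 15.3% to 20.2% of the summed FPKM of Slc2a1, Slc2a3 and Slc2a6 by group mean, and Slc2a6, which encodes a transporter of lysosomal membranes, contributed 77.3% to 82.4%. Slc2a3, which encodes the high-affinity transporter GLUT3, contributed the remaining 2.31% to 2.86%.

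Hexokinases phosphorylate glucose and so trap it in the cell. Hk2 encodes the inducible form that can bind mitochondria, and its FPKM was 17.3, 15.5 and 17.5 in Con, 13.3, 13.3 and 14.9 in Van, and 15.6, 18.0 and 17.2 in VanLip. Each of the 3 Van libraries was below each Con and each VanLip library, while Con and VanLip overlapped. Con averaged 16.8 ± 1.12, Van 13.9 ± 0.927 and VanLip 16.9 ± 1.25 (SD, n = 3). With DESeq2, Hk2 was lower in Van than in Con (log2 fold change -0.29, SE 0.09, adjusted p = 0.0262), a difference of -18.0%. It was higher in VanLip when compared with Van (log2 fold change 0.28, SE 0.09, adjusted p = 0.016), a difference of 21.4%. VanLip and Con gave a log2 fold change of -0.01 with a 95% interval of -0.17 to 0.16.

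The Hk2 calls were close to the threshold. edgeR gave nearly the same fold changes with adjusted p of 0.141 (Van against Con) and 0.0584 (VanLip against Van), and over all alternatives other than left-out libraries the adjusted p ran from 0.0113 to 0.215 and from 0.00732 to 0.127. The Van against Con call was lost without Con 1, Con 3, Van 1 or Van 2 (log2 fold changes -0.26, -0.26, -0.27 and -0.24), and the VanLip against Van call without Van 1, Van 2, VanLip 2 or VanLip 3 (0.27, 0.24, 0.24 and 0.27). Among cell markers, Ccr2, the chemokine receptor of classical monocytes, moved in the same directions as Hk2. Its FPKM was 173, 163 and 159 in Con, 70.4, 93.0 and 98.2 in Van, and 256, 156 and 190.3 in VanLip. Its log2 fold changes were -0.83 (adjusted p = 0.00048) for Van over Con and 1.04 (adjusted p = 7.4e-07) for VanLip over Van, though the first call was lost without Con 1 (log2 fold change -0.81) and in 5 of the 11 alternatives other than left-out libraries, among them edgeR and the replicate block, with adjusted p up to 0.191. Of the 12 monocyte markers, Ccr2 was the only 1 called between Van and Con, and 3 were called between VanLip and Van, all higher in VanLip. The summed list ranged from 11500 to 11881 in Con, 10540 to 11713 in Van and 11585 to 12844 in VanLip. Of the 7 dendritic cell markers 3 (Clec9a, Xcr1 and Siglech) were called lower for Van against Con, and 2 (Clec9a and Siglech) were called higher for VanLip against Van, with none called the other way, and their sums are given with Pfkfb3. The part of these markers in the Hk2 result was not tested.

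Hk3 encodes the hexokinase typical of myeloid cells and was the main form here, at 50.8%, 49.1% and 48.4% of the summed hexokinase FPKM in Con, Van and VanLip by group mean. Its FPKM was 33.6, 28.1 and 34.7 in Con, 27.2, 26.5 and 29.6 in Van, and 30.3, 31.9 and 30.6 in VanLip. The Van values were all below the VanLip values, and Con 2 fell within the range of Van. The log2 fold change for Van against Con was -0.20 (SE 0.09, adjusted p = 0.248), and without Con 2 it was -0.29 with an adjusted p of 0.0163, the lowest of a range that reached 0.638 over the left-out libraries. Hk2 made up 26.6%, 24.5% and 26.4% of the hexokinase sum and Hk1, the housekeeping form, 22.6%, 26.4% and 25.2%. Summed over these 3 forms, hexokinase FPKM averaged 63.1 ± 5.13 for Con, 56.5 ± 3.29 for Van and 64.0 ± 2.53 for VanLip (SD, n = 3). Hk3 overlaps Unc5a on the opposite strand, whose expected count was 6.76% to 8.89% of that of Hk3 by group, and the strand setting of the counting is not given in the sources used here, so reads could have been exchanged between them.

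Phosphofructokinase commits glucose to glycolysis. Pfkl encodes its liver-type subunit, with an FPKM of 9.48, 11.0 and 12.3 in Con, 12.7, 12.3 and 11.6 in Van, and 11.995, 12.2 and 11.7 in VanLip. Con 1 was the lowest library, and the groups overlapped in each comparison. Against Con, the log2 fold change was 0.17 in Van and 0.16 in VanLip, with 95% intervals of -0.02 to 0.35 and -0.03 to 0.34. Without Con 1 these fold changes were 0.079 and 0.070. For VanLip against Van it was -0.01, with an interval of -0.20 to 0.18. Pfkl made up 29.5% of the summed phosphofructokinase FPKM in Con, 33.0% in Van and 34.5% in VanLip by group mean, and the platelet-type Pfkp made up 66.4%, 63.3% and 60.7%.

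Pfkfb3 encodes the bifunctional enzyme, with high kinase activity, that makes the strongest allosteric activator of phosphofructokinase. Its FPKM was 29.0, 26.2 and 28.4 in Con, 29.6, 27.0 and 25.6 in Van, and 19.4, 23.7 and 22.2 in VanLip. Each of the 3 VanLip libraries was below each of the 6 others, while Con and Van overlapped. Group means were 27.9 ± 1.49, 27.4 ± 2.01 and 21.8 ± 2.22 (SD, n = 3). With DESeq2, Pfkfb3 was lower in VanLip than in Con (log2 fold change -0.35, SE 0.10, adjusted p = 0.00866), a difference of -21.6%, and lower in VanLip than in Van (log2 fold change -0.31, SE 0.10, adjusted p = 0.017), a difference of -19.6%. Van against Con gave -0.04, with a 95% interval of -0.23 to 0.15.

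By edgeR the adjusted p for Pfkfb3 was 0.102 against Con and also 0.102 against Van, with ranges over the alternatives of 0.00771 to 0.102 and 0.0152 to 0.102. The call against Con was lost without Con 1 or Con 3 (log2 fold changes -0.34 and -0.32), and the call against Van without Van 1 or VanLip 1 (-0.25 and -0.23). With the VanLip libraries thinned to the estimated fragment number of the others, both calls were made, with log2 fold changes of -0.36 and -0.33. Pfkfb3 made up 38.2%, 39.4% and 32.6% of the summed FPKM of Pfkfb1 to Pfkfb4 in Con, Van and VanLip, and Pfkfb4, the next kinase of the family, made up 54.9%, 54.6% and 60.3%. The FPKM of Pfkfb4 itself was 35.1, 43.9 and 41.6 in Con, 39.2, 36.2 and 38.3 in Van, and 41.4, 38.1 and 41.2 in VanLip, with overlapping groups and log2 fold changes of -0.01, -0.02 and -0.01. The 7 dendritic cell markers summed to 107 to 122 in Con, 95.1 to 115 in Van and 85.0 to 105 in VanLip, with none at 0. In VanLip 2 of them were called lower than in Con, but against Van 2 were called higher and 0 lower, opposite to Pfkfb3. The summed B cell markers, given above, were lower in every VanLip library than in every Con library and overlapped between VanLip and Van. The part of either cell type in the Pfkfb3 result was not tested.

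**Figure D3:**
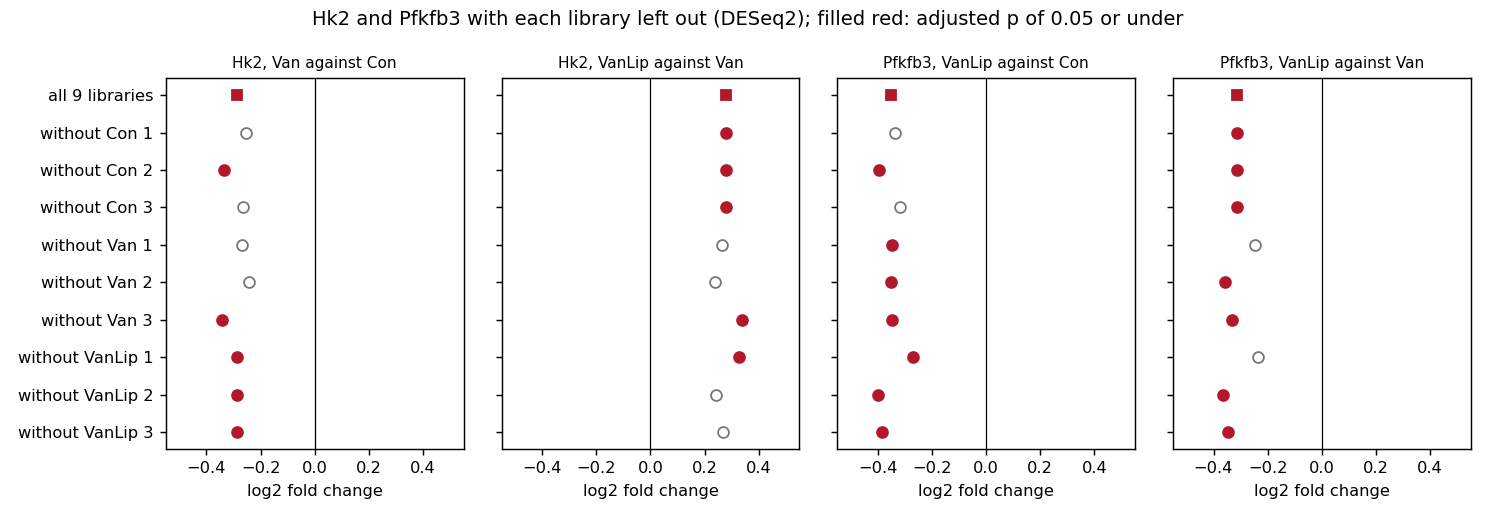
DESeq2 log2 fold change (horizontal axes) of the 4 calls of Hk2 and Pfkfb3 with all 9 libraries (squares) and with each library left out (circles), filled red at an adjusted p of 0.05 or under. All values stay on the same side of 0, between -0.34 and -0.24 for Hk2 in Van against Con, and for each call at least 2 of the 9 circles are open.

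Aldolase splits the phosphorylated sugar into triose phosphates, and phosphoglycerate kinase and enolase act on the products below it. Aldoa, the aldolase of most tissues, had an FPKM of 227, 266 and 271 in Con, 274, 297 and 304 in Van, and 269.7, 297 and 237 in VanLip and made up nearly all of the aldolase sum in each group, at 99.6% by group mean in Con, the lowest. The Van libraries lay above the Con libraries, with the lowest Van value just over the highest Con value, and VanLip overlapped both. The log2 fold change for Van against Con was 0.18, with a 95% interval of -0.01 to 0.37 and an adjusted p of 0.37. With each library left out in turn it ran from 0.11 to 0.23.

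Pgk1 encodes the phosphoglycerate kinase that makes the first ATP of glycolysis, and it varied least of the 10 genes. Its FPKM was 79.9, 76.9 and 79.8 in Con, 78.3, 78.2 and 82.9 in Van, and 85.6, 87.2 and 79.3 in VanLip. All pairs of groups overlapped, and the log2 fold changes were 0.01, 0.08 and 0.07, with all 3 intervals within -0.12 to 0.20. Pgk1 has 2 near-identical copies in the tables, Pgk1-rs7 and Gm5537, which together held 12.4% of the Pgk1 count in Con, 11.9% in Van and 9.48% in VanLip, so its level is uncertain by about that share.

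Eno1 encodes α-enolase. Its FPKM was 239.8, 268 and 274 in Con, 229.6, 262 and 258 in Van, and 314, 281 and 279 in VanLip. Each VanLip library was above each Con and each Van library, although the lowest VanLip value exceeded the highest Con value only slightly. The log2 fold change for VanLip against Van was 0.22 (SE 0.09, adjusted p = 0.084) and did not pass the threshold. With TMM scaling of the libraries, Eno1 was called, at an adjusted p of 0.0475, where the range over its alternatives was 0.0475 to 0.326. The copies Eno1b, Gm4735 and Gm5855 held 7.41% to 8.69% of its count by group, and with them added the log2 fold change was 0.21. Eno3, named for muscle, made up 31.1% of the enolase sum in Con, 25.7% in Van and 30.9% in VanLip. Eno3 FPKM was 123, 95.1 and 138 in Con, 104, 78.2 and 77.2 in Van, and 91.5, 158 and 146 in VanLip, and it was higher in VanLip than in Van (log2 fold change 0.60, SE 0.19, adjusted p = 0.0247), a call lost without Con 1, Van 2, Van 3, VanLip 2 or VanLip 3 (log2 fold changes from 0.46 to 0.60).

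**Figure D4:**
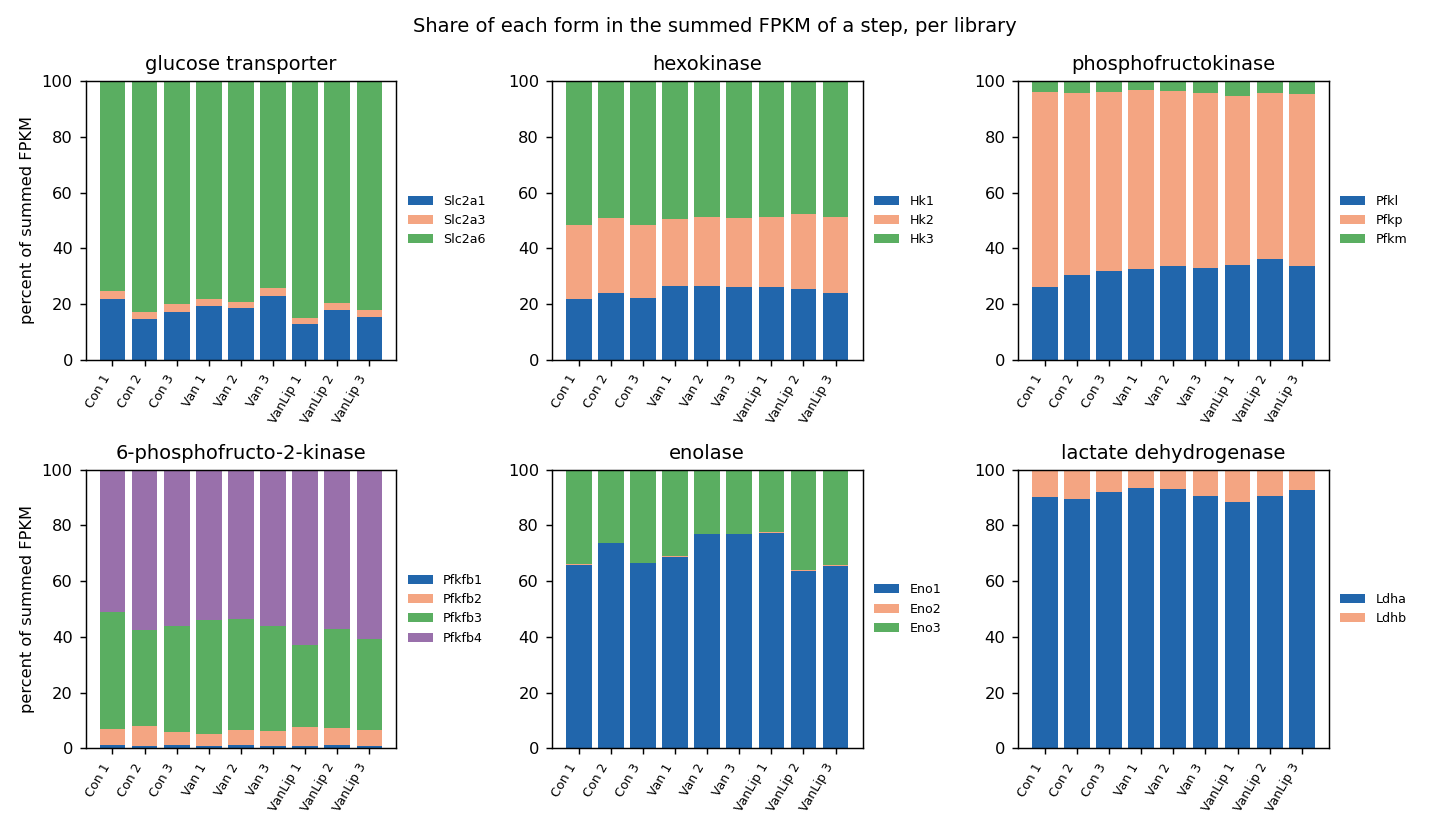
Percent of the summed FPKM of each step (vertical axes, 0 to 100) contributed by each of its forms in the 9 libraries, for transport, hexokinase, phosphofructokinase, the kinase that controls it, enolase and lactate dehydrogenase. The leading form of each step is the same in all 9 libraries, with Eno1 between 63.8% and 77.3% of the enolase sum and Pfkfb3 between 29.5% and 42.1% of its family.

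Ldha encodes the lactate dehydrogenase subunit that favours lactate formation and is an established HIF target, with the 3 motif sites shown above. Its FPKM was 104, 98.7 and 108 in Con, 117, 115 and 116 in Van, and 107, 118 and 110.1 in VanLip. The Van libraries all lay above the Con libraries, and VanLip overlapped both. The log2 fold change was 0.14 for Van against Con (SE 0.06, adjusted p = 0.19), 0.08 between VanLip and Con and -0.06 between VanLip and Van. Its 95% interval for Van against Con, 0.03 to 0.26, excludes a change of 2-fold, as the intervals of all 10 genes do in all 3 comparisons. Ldha made up 90.5% to 92.3% of the lactate dehydrogenase sum by group mean, and Ldhb made up the rest.

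Counted over the 10 genes, the FPKM of the groups did not overlap for 3 genes in Van against Con (Hk2 lower, Aldoa and Ldha higher in Van), where 23.5% of genes with a mean FPKM of at least 1 did not overlap. The count was 2 for VanLip against Con (Pfkfb3 lower, Eno1 higher), where the share of all such genes was 25.7%. It was 4 for VanLip against Van (Pfkfb3 lower and Hk2, Hk3 and Eno1 higher), where the share was 29.4%. These counts too are near the share of all genes.

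The rest of the pathway was read from lists of 79 other genes: other glycolytic enzymes and transporters, HIF regulators, other HIF targets, pyruvate entry, the pentose phosphate branch and glucose synthesis. For Van against Con, 5 of the 74 with an adjusted p were higher in Van and 0 lower, with a median log2 fold change of 0.04, beside 2.27% higher and 2.06% lower over all genes tested. They were P4ha1, a collagen prolyl hydroxylase subunit (log2 fold change 0.41, SE 0.10, adjusted p = 0.00252), Adpgk, which phosphorylates glucose with ADP (0.29, adjusted p = 0.0159), Egln2, an oxygen-sensing prolyl hydroxylase (0.29, adjusted p = 0.031), Narf (0.35, adjusted p = 0.0492), and Cited2, which competes with HIF-1α for its coactivator (0.49, adjusted p = 0.0498). P4ha1 FPKM was 20.4, 19.2 and 21.4 in Con, 29.9, 29.1 and 26.2 in Van, and 19.1, 22.6 and 23.5 in VanLip. The 3 Van values were above all 6 others. Cited2 had an FPKM of 25.6, 23.2 and 24.0 in Con, 27.5, 33.5 and 42.3 in Van, and 28.7, 31.7 and 22.2 in VanLip, and without Van 3 its log2 fold change was 0.31. None of the 5 was called in every fit with 1 library left out, and edgeR called 0 of the 79, with 11 at an unadjusted p under 0.05. P4ha1 was lost only without Van 2 (0.37), whereas each of the others was lost without 5 of the 6 Con and Van libraries, all but Con 2 for Adpgk (0.26 to 0.29), Van 1 for Egln2 (0.25 to 0.32) and Cited2 (0.31 to 0.54), and Van 2 for Narf (0.28 to 0.36). Vcam1, a marker of red pulp macrophages, moved in the same directions as P4ha1, Adpgk and Narf. Its FPKM was 132, 167 and 156 in Con, 189, 238 and 201 in Van, and 129.9, 146 and 173 in VanLip. Its log2 fold changes were 0.46 (adjusted p = 0.0106) for Van over Con, a call lost without Con 1, Con 3 or Van 2 (0.37, 0.47 and 0.37), and -0.50 (adjusted p = 0.00176) for VanLip over Van. Of the 11 alternatives other than left-out libraries, 7 made the first call and 8 the second, with adjusted p up to 0.402 and 0.203. The 8 markers of these macrophages summed to 1530.0 to 1837 in Con, 1784 to 2381 in Van and 1489 to 1931 in VanLip, none was at 0, and Vcam1 was the only 1 called. Their part in these results was not tested.

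For VanLip against Con, 2 of 72 were higher and 2 lower in VanLip, with a median of 0.04, beside 2.98% and 3.69% of all genes tested. Pdk2, a kinase that switches off pyruvate dehydrogenase, was higher (log2 fold change 0.50, SE 0.13, adjusted p = 0.00298), as was the phosphoglycerate mutase Pgam1 (0.37, adjusted p = 0.0136). The histone demethylase Kdm3a was lower (log2 fold change -0.32, SE 0.07, adjusted p = 0.000987), as was Ddit4, which restrains mTORC1 under stress (-1.26, adjusted p = 0.023). Ddit4 FPKM was 25.5, 50.03 and 41.5 in Con, 52.7, 49.0 and 62.8 in Van, and 8.89, 16.9 and 23.8 in VanLip. The VanLip values were the 3 lowest of the 9 libraries, and VanLip 1 was the lowest. Pdk2 and Kdm3a were called with each library left out in turn, and edgeR called 1 of the 4, Pdk2. Pgam1 was lost without any 1 of the Con libraries (log2 fold changes 0.37, 0.36 and 0.39), and without VanLip 1, the highest of its group, it was called at 0.24. Ddit4 was lost without Con 2, Con 3, VanLip 1 or VanLip 2 (-1.03, -1.22, -0.96 and -1.27). With TMM scaling the counts were 5 higher and 2 lower.

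For VanLip against Van, 2 of 74 were higher and 7 lower in VanLip, with a median of 0.00, beside 4.58% and 5.28% of all genes tested. Higher were Eno3, given above, and Pdk1, another pyruvate dehydrogenase kinase (0.23, adjusted p = 0.0293). Pdk1 belongs to the list of HIF targets, where 1 of the 21 tested was higher and 5 were lower, with a median of -0.11, where the same shares of all genes apply and the median of all genes was 0.01. The same list had 3 of 21 higher and 0 lower for Van against Con, with a median of 0.17, and 0 of 19 higher and 2 lower for VanLip against Con, with a median of -0.10. This list too was chosen with earlier results of these data known, so its counts are only a description. The 5 lower for VanLip against Van were P4ha1 (log2 fold change -0.51, SE 0.10, adjusted p = 1.2e-05), Ddit4 (-1.74, adjusted p = 0.000245), Narf (-0.50, adjusted p = 0.000464), Kdm3a (-0.22, adjusted p = 0.0363) and Plin2, which coats lipid droplets (-0.51, adjusted p = 0.0193). The other 2 were Pdp1, a pyruvate dehydrogenase phosphatase (-0.44, adjusted p = 0.00212), and Adpgk (-0.24, adjusted p = 0.0343). P4ha1, Ddit4, Narf and Pdp1 were called with each library left out in turn, and edgeR called 3 of the 9, P4ha1, Ddit4 and Narf. Plin2 was the most abundant gene of the HIF target list, with an FPKM of 133, 178 and 154 in Con, 199.8, 161 and 176 in Van, and 153, 104 and 112 in VanLip, and its call was lost without Van 1, Van 3, VanLip 2 or VanLip 3 (-0.41, -0.52, -0.40 and -0.44). Each of the remaining 3 was lost without 7 of the 9 libraries, all but Con 2 and Con 3 for Pdk1 (0.19 to 0.25), Con 1 and VanLip 3 for Kdm3a (-0.25 to -0.17), and Con 2 and VanLip 2 for Adpgk (-0.24 to -0.20). With TMM scaling the counts were 4 higher and 5 lower.

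**Figure D5:**
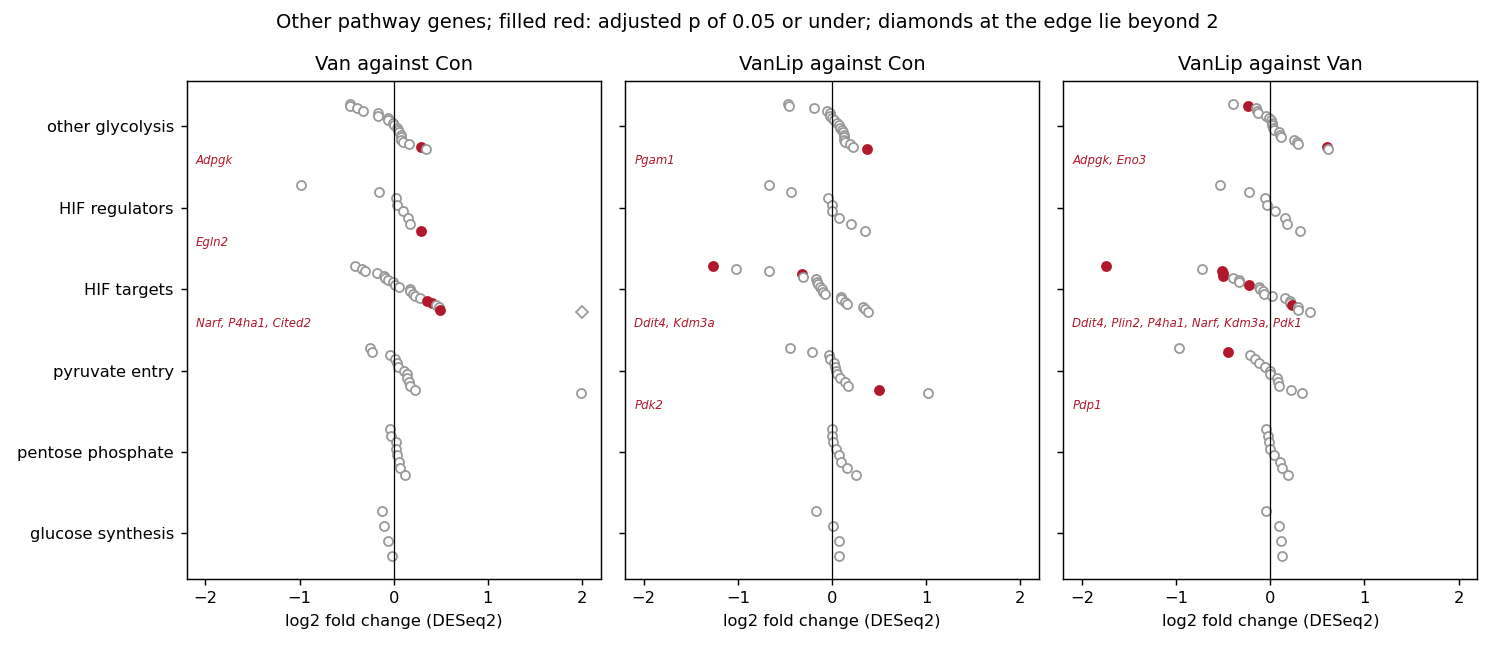
DESeq2 log2 fold change (horizontal axes) of the other pathway genes with an adjusted p, 1 point a gene, by list (vertical axis), where filled red points have an adjusted p of 0.05 or under and are named under their list. Called genes are 5 for Van against Con, all higher, 4 between VanLip and Con, and 9 between VanLip and Van, of which 7 are lower, and most points lie close to 0.

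Other lists gave few calls. Of the 8 HIF regulators with an adjusted p, 1 was called for Van against Con (Egln2, given above) and 0 in either comparison with VanLip. None of the 8 pentose phosphate genes was called by DESeq2 in any comparison, with 0 at an unadjusted p under 0.05, and its most abundant gene, the transaldolase Taldo1, had group means of 331 ± 8.48, 362 ± 29.6 and 358 ± 39.3 (SD, n = 3). Gapdh, the glyceraldehyde phosphate dehydrogenase and the most abundant of the other glycolytic genes, had group means of 294 ± 12.2, 306 ± 16.8 and 299 ± 20.0, and the log2 fold changes of Gapdh, which like Pgam1 has processed copies that could share its reads, were 0.04, -0.00 and -0.05. Of the glucose synthesis genes, 4 of 7 had an adjusted p and none was called, again with 0 at an unadjusted p under 0.05. Pdha1, a pyruvate dehydrogenase subunit and the most abundant gene of the pyruvate entry list, had group means of 50.3 ± 4.21, 49.8 ± 7.09 and 52.1 ± 4.27. G6pc3, the ubiquitous glucose-6-phosphatase, led the glucose synthesis list with group means of 11.1 ± 0.862, 10.3 ± 0.629 and 11.8 ± 1.37.

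The genes whose levels followed Hif1a, Pfkfb3 and Hk2 most closely were sought among 7181 protein-coding genes by Pearson's r of log2(FPKM + 1) over the 9 libraries, which share the group difference in depth. For Pfkfb3 they were Cd83 (r = 0.98), a surface protein of activated dendritic cells and B cells, Cse1l (0.96) and Gm11710 (0.95). For Hif1a they were Bach1, a haem-sensing repressor, Nsd1 and Bcl3, a nuclear partner of NF-κB subunits (each 0.92). For Hk2 they were Ubash3b (0.94), Ehd4 (0.94) and Dcaf11 (0.93). These genes were picked as the highest of many and are given as a description.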

How the data were processed

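Libraries were made with a stranded kit from polyadenylated RNA. Per the submitters' processing notes, the authors aligned paired reads to GRCm38 with HISAT2 2.2.1 and quantified genes with StringTie 2.1.3. The authors deposited FPKM values per gene and expected counts per gene that are not normalized and need not be whole. Neither the annotation release nor the strand setting is given in the sources used here. Expected counts were rounded and tested in R 4.3.3 with the two-sided Wald test of DESeq2 1.42.0, with all 9 libraries in 1 fit, group as the only term and Benjamini-Hochberg adjustment over all genes tested. The threshold was an adjusted p of 0.05. The method was tested on simulated data.

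Positions, overlapping genes and copies (blastn 2.17.0, at least 95% identity over 100 bases) came from GENCODE M21 on GRCm38, and upstream sequences from RefSeq. The members and gene lists were chosen with earlier results of these data known. Besides the 10 members, the named genes were up to 10 other pathway genes with the lowest adjusted p of 0.05 or under per comparison, the most abundant gene of each list, copies with a mean FPKM of at least 1, the 3 genes most like Hif1a, Pfkfb3 and Hk2 (mean FPKM of at least 5), and markers that moved with a result. Slc2a3, Slc2a6, Hk1, Pfkp, Pfkfb4, Ldhb, Gm5537, Gm4735 and Gm5855 were named after their values were seen, to complete an isoenzyme or copy sum. Alternatives were edgeR 4.0.16, TMM library sizes, a minimum of 10 counts in 3 libraries, no independent filtering, only the 2 groups compared, a replicate block, limma 3.58.1 on quantile-normalized log2(FPKM + 1) or log2(FPKM + 0.1) or with a mean FPKM of at least 1, VanLip fragments thinned, each library left out and, added after seeing the data, copies added to their gene.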

Additional observations from a re-analysis of the deposited data

How the results depend on the processing

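Of the member values over all alternatives, 551 kept direction and side of the threshold, 26 lost a call, 4 gained one and 19 changed sign. For the other named genes 316 kept both and 164 lost a call. The causes were not tested, apart from fewer samples or genes where the alternative itself has fewer.

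Genes called for Van against Con numbered 803 by DESeq2, 189 by edgeR, and 36, 51 and 102 by limma with log2(FPKM + 1), with log2(FPKM + 0.1) and under a mean FPKM minimum of 1. For VanLip against Con they were 1104, 289, and 193, 259 and 398, and 735 with VanLip thinned. For VanLip against Van they were 1777, 727, and 613, 642 and 858. TMM scaling moved the split from 494 higher and 610 lower to 657 and 500 for VanLip against Con, and from 826 and 951 to 1013 and 809 for VanLip against Van. More genes were higher than lower in these comparisons also with the replicate block (623 and 523, 862 and 782) and by edgeR (157 and 132, 391 and 336). Members called were 0 in each comparison by edgeR (3, 2 and 3 at an unadjusted p under 0.05) and by limma with log2(FPKM + 1) (3, 2 and 2) and log2(FPKM + 0.1) (3, 1 and 2). Limited to a mean FPKM of 1 or more, limma called 0, 1 and 1 (Pfkfb3), with 4 members at an unadjusted p under 0.05 in the first comparison. Other pathway genes called for Van against Con were 0 by edgeR (11 at an unadjusted p under 0.05), 3 without independent filtering, and 0, 0 and 1 by limma (12, 12 and 8). For VanLip against Con they were 1 by edgeR, 7 with TMM, and 0, 0 and 2 by limma (12, 12 and 13). For VanLip against Van they were 3 by edgeR, and 0, 0 and 4 by limma (19, 17 and 17).

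Leaving out each library gave 425 to 913, 606 to 1276 and 1142 to 1666 genes, 0 to 2, 0 to 1 and 0 to 2 members, and 1 to 6, 2 to 8 and 5 to 9 other pathway genes. Signs changed for Pgk1 in Van against Con, to -0.00028, -0.00029 and -0.00028 by the 3 limma fits and -0.0015 with copies added, for Hk2 in VanLip against Con, to 0.019 by edgeR and TMM, and for Pfkl in VanLip against Van, to 0.014 by both. With a library left out the ranges crossing 0 were -0.0055 to 0.15 for Aldoa, -0.056 to 0.042 for Hk2 and -0.30 to 0.0059 for Slc2a1 in VanLip against Con, -0.10 to 0.0090 for Pfkfb3 and -0.027 to 0.033 for Pgk1 in Van against Con, and -0.034 to 0.031 for Pfkl in VanLip against Van.

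Deviations of same-numbered libraries correlated between -0.06 and 0.12. They were not set against differently numbered libraries, so whether the numbers mark a pairing was not tested. The main fit used the numbers only as names. With a replicate block the calls were 932, 1146 and 1644 genes and 1, 1 and 2 members, and 2 other pathway genes were called for Van against Con. Depth was ample, with a mean normalized count of 2550 or more for every member in every group, and the number of libraries, 3 a group, limits precision.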
